A study of Mus musculus with 30 samples.

Results

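In newborn mouse retina, 78 genes had less RNA in mutant than in wild-type (WT) retinal ganglion cells (RGCs) and, within the mutant, more RNA in the cells left after RGC purification than in the RGCs. They were taken from 38720 gene symbols, of which 12408 had a mean normalised count of at least 50 over the libraries of both deposited comparisons. The rule asked for a log2 ratio of deposited means, with 1 added to each mean, at least 0.5 below 0 for mutant RGCs over WT RGCs and at least 0.5 above 0 for mutant non-RGC cells over mutant RGCs. It found 83 genes, and Stag3, Col11a2, Gm16973, Gm15446 and Gm11974 were left out by their names. The members were chosen by their measured levels in both comparisons, so their values there are a description and carry no test. The mutant RGC libraries enter both ratios, so a low value in those libraries moves a gene towards both thresholds at once.

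The series set newborn (P0) pups with Cre recombinase under Math5 control and floxed Ezh2, labelled Math5Cre; Ezh2f/f, and pups that also had 1 floxed copy of G9a (Ehmt2), labelled Math5Cre; Ezh2f/fG9af/+, against C57BL/6 WT pups. Retinas were digested with papain, RGCs were captured on magnetic beads carrying an antibody to CD90 (Thy1), and the cells not captured were the non-RGC fraction. No group received a drug or other agent, per the labels. The deposited comparisons hold 9 libraries, namely 3 of mutant non-RGC cells, 3 of mutant RGCs and 3 of WT RGCs, and call the mutant only "mut", and the sources used here do not say which of the 2 mutant genotypes that is. No library of WT non-RGC cells was analysed here, so genotype and fraction cannot be told apart between mutant non-RGC cells and WT RGCs.

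Polycomb repressive complex 2, whose enzyme is Ezh2, methylates lysine 27 of histone H3 at silent genes, and G9a methylates lysine 9 of the same histone. Math5 (Atoh7) is the transcription factor that makes retinal progenitors competent to become RGCs, and Cre under its control acts in that lineage and not in every retinal cell. RGCs are the output neurons of the retina, while the non-RGC fraction of a newborn retina holds progenitors, amacrine, horizontal and early photoreceptor cells. In bulk RNA, fewer cells of a type and less RNA per cell cannot be told apart.

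Each library held between 10559040 and 12269290 reads counted in genes, and libraries are numbered within a group by falling size factor, because the deposited tables do not tie them to single samples. The labels do not say whether the 3 libraries of a group are of separate pups or litters. SDs, SEs and p-values thus rest on differences between these libraries only and may not reflect differences between pups. Ezh2 averaged 1879 ± 76.3 normalised counts in mutant RGCs and 1300.0 ± 239 in WT RGCs, and Ehmt2 averaged 2708 ± 309 and 3734 ± 128 (SD, n = 3 each). These counts cover whole genes, so they do not check the deletion of the floxed exons. The summed count of 27 RGC markers was 9418 to 18150 in mutant non-RGC libraries, 29630 to 48070 in mutant RGC libraries and 60970 to 73610 in WT RGC libraries, so the fractions and genotypes stood apart on these markers. Thy1 itself stood at 209, 351 and 10.3 normalised counts in mutant non-RGC libraries 1, 2 and 3. The summed count of 25 proliferation genes was 52750 to 53810 in mutant non-RGC libraries and 44320 to 45740 in mutant RGC libraries. In WT RGC libraries it was 20290 to 34240, so mutant RGC libraries lay nearer the non-RGC libraries on these genes. The X-linked silencing RNA Xist was near 0 in mutant non-RGC library 3, at 7.2, and in mutant RGC library 1, at 3.7, against at least 1159 in every other library. Mutant RGC library 1 also held the highest summed count of 16 microglia and macrophage markers, 10270, against 2666 to 6215 in the other RGC libraries and 308 to 403 in the non-RGC libraries.

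Few of the genes that were low in mutant RGCs met the rule. Of 1708 genes with a log2 ratio at least 0.5 below 0 in mutant RGCs over WT RGCs, 1124 (65.8%) were also at least 0.5 lower in mutant non-RGC cells than in mutant RGCs, 501 lay within 0.5 of 0 between the fractions, and 83 (4.86%) met the rule. For comparison, 408 of all 12408 genes with a mean of at least 50 were higher in the non-RGC fraction by the same measure. Of these 408 genes, 20.3% met the rule, where 1708 of the 12408 were low in mutant RGCs. The mutant RGC libraries enter both ratios, which favours meeting both thresholds, so nothing is read from the shares that met the rule. Of the genes low in mutant RGCs, most (65.8%) had a further step down in the non-RGC fraction, while the 78 members have a step up by the rule. None of the members belongs to any of 24 lists with 552 genes that cover retinal and other cell types, chromatin regulators, signalling targets, stress and metabolism. The lists are short beside the 38720 gene symbols and lack related genes such as the members Miat, Snhg16 and Rmst, so little can be read from this. None of the members is among the 27 RGC markers. limma called 13 of those markers lower in mutant RGCs than in WT RGCs, where 12.3% of all tested genes were called lower. It called 19 of them lower in mutant non-RGC cells than in mutant RGCs. The rule asks for more RNA in non-RGC cells and so leaves such markers out in advance.

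**Figure D1:**
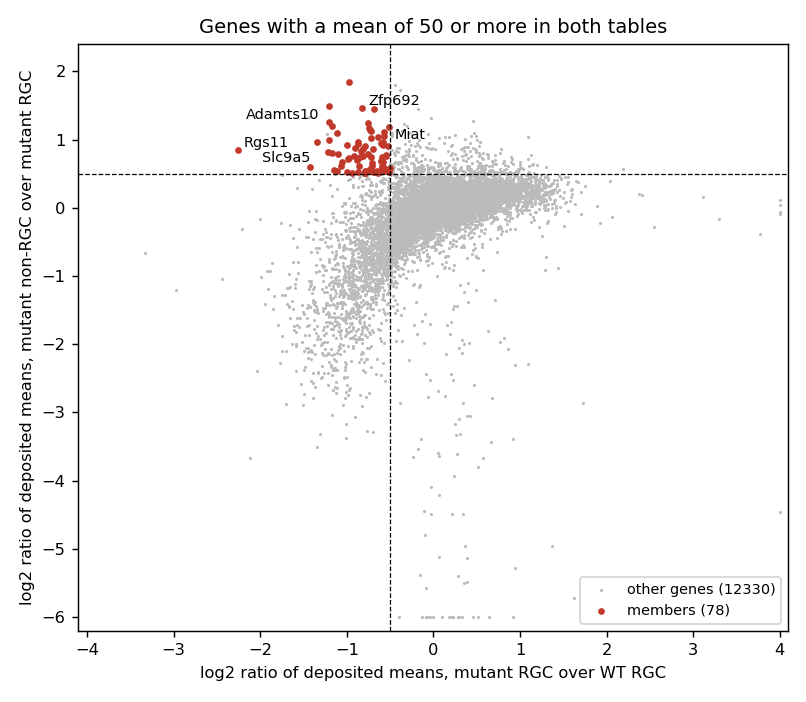
Each point is a gene with a mean of at least 50, with the log2 ratio of mutant RGC over WT RGC means on one axis and the log2 ratio of mutant non-RGC over mutant RGC means on the other, and members are coloured. The 78 members fill the corner bounded by the thresholds of 0.5, most of them close to the lines, and genes beyond the plotted range are drawn at its edge.

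Members spanned less of the genome, by median, than tested genes. The median member spans 12417 bases from RefSeq start to end, against 23352 bases for the tested genes with a RefSeq entry, 20365 for the genes low in mutant RGCs and level between fractions, and 49923 for those low in both steps. Member spans ran between 1523 bases for Nudt8, a Nudix hydrolase, and 586052 bases for Ryr3. Another RefSeq gene overlaps 38 members (48.7%), close to the 48.3% of tested genes, and the sources used here give no counting strand, so reads of overlapping or antisense partners of these members could not be separated. Chromosome 4 carries 8 members, of which 2310042D19Rik (Perm1 in RefSeq), Plekhn1 and Klhl17 lie in a row with gaps of 148 and 501 bases and no gene between them. Reads that run past a gene end in that row were not examined.

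RefSeq promoters, here 250 bases before to 50 after an annotated transcript start, were at hand for 61 of the 78 members. Their median GC content was 59.7%, against 61.0% for 11663 tested genes, and the median number of CG pairs was 15, against 20. A GC box, read as the letters GGGCGG on either strand, stood in 32 member promoters (52.5%), against 64.0% of tested promoters and 35.9% of all 27025 promoters in the table. A CCAAT box (CCAAT, either strand) stood in 42.6% of member promoters, against 38.1% of tested promoters, and a TATA box (TATAAA, either strand) in 4.92%, against 6.98%. A smaller share of members than of tested genes thus carried a GC box, and members had fewer CG pairs by median, with no test made of the difference. Tested genes, here and for the spans above, include genes below the mean of 50 that members had to reach. The promoters given here are those of Slc9a5, which had the largest decrease between genotypes among named members with a promoter in the table, of Zfp692, which had the largest increase between fractions among the named members with groups apart, and of Miat, which had the most normalised counts, a measure that also grows with transcript length. They are printed 5′ to 3′ on the strand of the gene, from RefSeq on GRCm38.p6, with GC boxes in capitals (CCGCCC marks a box on the opposite strand). Slc9a5 is on the plus strand at chr8:105348008-105348307, Zfp692 on the plus strand at chr11:58306819-58307118 and Miat on the minus strand at chr5:112228899-112229198.
Slc9a5: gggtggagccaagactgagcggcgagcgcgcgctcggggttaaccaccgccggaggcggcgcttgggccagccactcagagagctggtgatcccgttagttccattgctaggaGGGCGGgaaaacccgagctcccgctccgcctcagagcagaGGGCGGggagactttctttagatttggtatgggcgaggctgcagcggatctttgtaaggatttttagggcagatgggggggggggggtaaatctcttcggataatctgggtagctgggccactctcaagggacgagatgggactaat
Zfp692: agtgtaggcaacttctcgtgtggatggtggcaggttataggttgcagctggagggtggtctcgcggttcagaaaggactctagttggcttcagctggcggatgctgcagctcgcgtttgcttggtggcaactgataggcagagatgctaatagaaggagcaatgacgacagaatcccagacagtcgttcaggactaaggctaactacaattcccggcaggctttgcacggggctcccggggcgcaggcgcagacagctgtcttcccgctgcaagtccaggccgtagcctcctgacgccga
Miat: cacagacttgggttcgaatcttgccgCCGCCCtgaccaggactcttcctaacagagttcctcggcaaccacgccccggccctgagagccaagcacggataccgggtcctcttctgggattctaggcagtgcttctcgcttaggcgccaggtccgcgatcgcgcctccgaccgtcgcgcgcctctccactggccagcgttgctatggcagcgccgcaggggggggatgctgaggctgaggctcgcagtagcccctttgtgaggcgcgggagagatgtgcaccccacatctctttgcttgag
The Slc9a5 window holds 2 GC boxes and 20 CG pairs, the Zfp692 window 0 GC boxes and 17 CG pairs, and the Miat window 1 GC box and 25 CG pairs.

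Across the members, the 3 mutant RGC libraries stood at the bottom. In 48 of the 78 genes every mutant RGC library lay below all 6 other libraries, a pattern that 2.59% of 15272 tested genes showed, and that the rule favours. limma called 47 members lower in mutant RGCs than in WT RGCs at an adjusted p under 0.05, where 12.3% of all tested genes were called lower, and the authors' deposited table called 46, where 6.48% of its genes with an adjusted p were called lower. Between fractions limma called 35 members higher in mutant non-RGC cells than in mutant RGCs, where 5.08% of tested genes were, and the authors' deposited table called 34, where 1.17% were. With each comparison scaled by the authors' own size factors, the genotype groups did not overlap in 63 members, where 24.9% of tested genes stood apart with mutant RGCs lower, and the fractions did not overlap in 57, where 17.1% stood apart with mutant non-RGC cells higher. The rule used both contrasts, so nothing is read from these counts. The median log2 difference of the members was -0.74 for mutant RGCs minus WT RGCs (range -2.25 to -0.43; all tested genes 0.00) and 0.75 for mutant non-RGC cells minus mutant RGCs (range 0.38 to 1.81; all tested genes 0.01). The first count was not stable when single libraries were left out. Without mutant RGC library 2, mutant RGC library 3, WT RGC library 1 or WT RGC library 2 it was 0. In those fits 55, 57, 50 and 67 members were at an unadjusted limma p under 0.05, against 62 in the main fit. The second count was 9 and 16 without mutant RGC library 2 or 3, 5 and 9 without mutant non-RGC library 1 or 2, and 57 without mutant non-RGC library 3. The shares of all tested genes called in these smaller fits were not taken, so these shifts cannot be read as particular to the members.

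**Figure D2:**
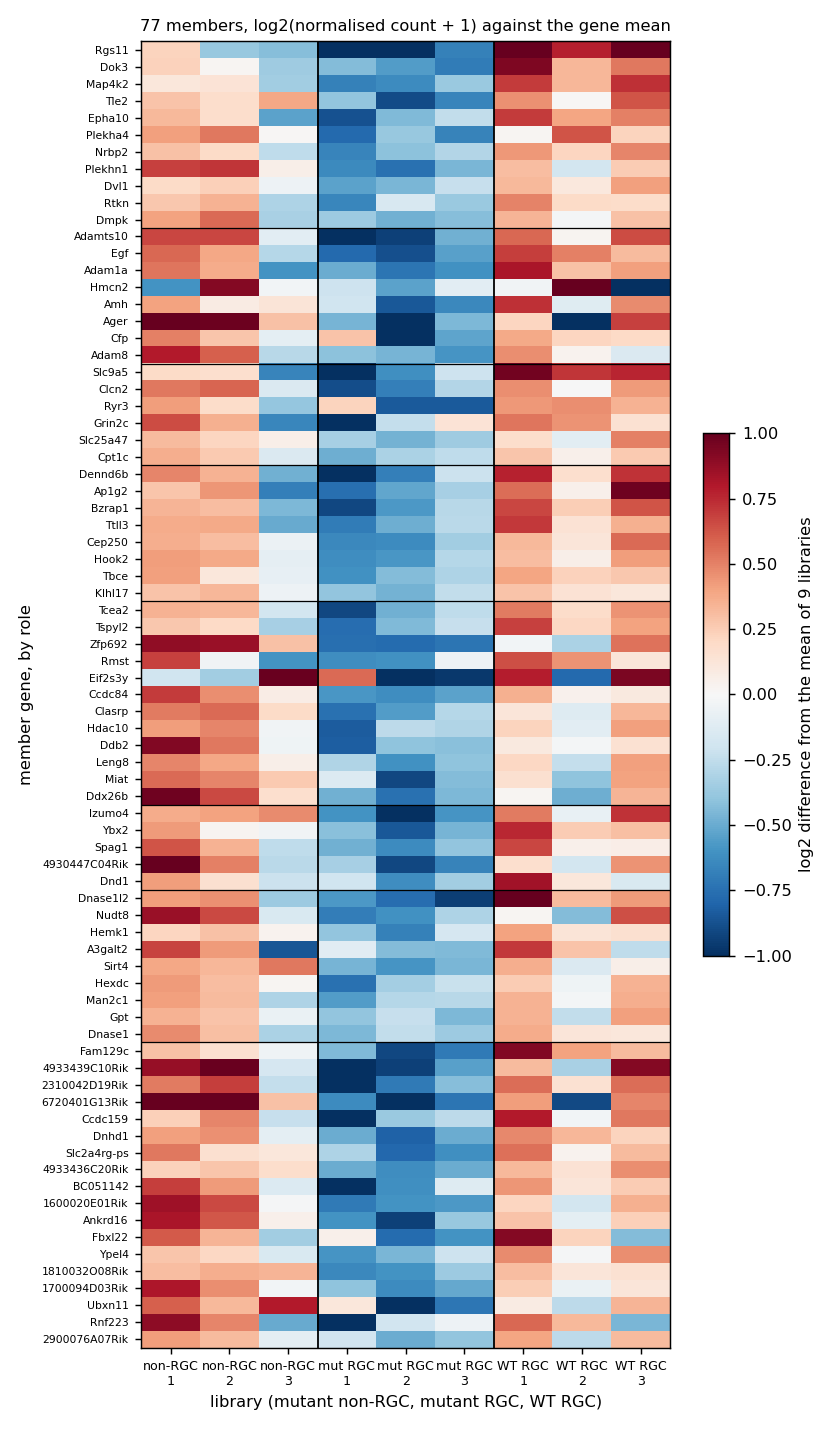
Rows are 77 of the 78 members, columns the 9 libraries in the order mutant non-RGC, mutant RGC and WT RGC, and colour gives the log2 level of a gene relative to its mean over the 9 libraries, saturating at 1 in either direction. The mutant RGC columns are the low block, and mutant non-RGC library 3 and WT RGC library 2 are paler than the other libraries of their groups.

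Signalling proteins made up 11 members, and their median log2 difference was -0.86 for mutant RGCs minus WT RGCs and 0.53 for mutant non-RGC cells minus mutant RGCs. Rgs11, a regulator of G protein signalling that speeds the shut-off of the G protein cascade in ON bipolar cells of the retina, had the largest genotype difference of all members. Counts of Rgs11 were 114, 74.6 and 72.0 in mutant non-RGC libraries, 36.1, 46.7 and 60.4 in mutant RGC libraries and 287, 167 and 256 in WT RGC libraries. The 3 groups did not overlap, and the log2 difference of mutant RGCs minus WT RGCs was -2.25 (SE 0.29). Rgs11 lies at chromosome 17, 26202527 to 26211324. Map4k2, a kinase of the germinal centre family that acts upstream of JNK, showed the same order. Map4k2 stood at 537, 544 and 389 in mutant non-RGC libraries, 309, 320.1 and 384 in mutant RGC libraries and 805, 624 and 823 in WT RGC libraries. Its 3 groups were apart as well, though mutant non-RGC library 3 stood only just above mutant RGC library 3. Dok3, an adaptor protein downstream of immune receptors, was low throughout. Dok3 had 99.1, 85.2 and 65.8 normalised counts in mutant non-RGC libraries, 62.0, 56.9 and 51.6 in mutant RGC libraries and 162, 106 and 122 in WT RGC libraries. WT RGC libraries were highest and mutant RGC libraries lowest, with no overlap. Dvl1, a dishevelled protein that carries the Wnt signal from receptor to cytoplasm, had a smaller difference. Counts of Dvl1 were 1975, 2039 and 1662 in mutant non-RGC libraries, 1188, 1259.9 and 1472 in mutant RGC libraries and 2161, 1852 and 2296 in WT RGC libraries. The mutant RGC libraries lay below the other 6, and the non-RGC and WT RGC libraries overlapped. Epha10, an Eph receptor whose kinase domain is inactive, stood at 614, 555 and 339 in mutant non-RGC libraries, 267, 361 and 415 in mutant RGC libraries and 797, 644 and 697 in WT RGC libraries, so the fractions overlapped through non-RGC library 3. Plekhn1, a pleckstrin homology domain protein at chromosome 4, 156221456 to 156228542, had the group's largest difference between fractions, 1.10 (SE 0.21). Among signalling members outside the naming rule, Tle2, a Groucho family corepressor, was steady across the non-RGC libraries. Tle2 stood at 269, 249 and 289 in mutant non-RGC libraries, 168, 118 and 139 in mutant RGC libraries and 304, 223 and 342 in WT RGC libraries. Its mutant RGC libraries lay below the other 6, and non-RGC library 3 was the highest of its group, unlike in most members. Nrbp2, a pseudokinase of the nervous system, and Dmpk, the kinase whose gene carries the myotonic dystrophy repeat in humans, had their mutant RGC libraries below the other 6 as well, with -0.80 (SE 0.13) and -0.59 (SE 0.12) between genotypes.

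Of 9 secreted proteins, proteases and matrix proteins, Adamts10 had the largest difference between genotypes. This metalloprotease acts on fibrillin microfibrils of the extracellular matrix. Adamts10 had 1282, 1278 and 749 normalised counts in mutant non-RGC libraries, 386, 421 and 576 in mutant RGC libraries and 1199, 822 and 1264 in WT RGC libraries. Every mutant RGC library lay below the other 6, and the non-RGC and WT RGC libraries overlapped. The log2 difference was -1.21 (SE 0.22) for mutant RGCs minus WT RGCs and 1.24 (SE 0.24) for mutant non-RGC cells minus mutant RGCs. Egf, the precursor of epidermal growth factor, rests on fewer reads. Counts of Egf were 96.2, 84.3 and 52.5 in mutant non-RGC libraries, 37.0, 34.5 and 43.8 in mutant RGC libraries and 104, 91.6 and 80.0 in WT RGC libraries. The mutant RGC libraries were lowest here too, while the other groups overlapped. Ager, the receptor for advanced glycation end products, had a different layout. Ager stood at 201, 191 and 118 in mutant non-RGC libraries, 69.4, 46.7 and 70.1 in mutant RGC libraries and 112, 38.9 and 156 in WT RGC libraries. WT RGC library 2 was the lowest of all 9, so the genotypes overlapped, and the fractions were apart. Hmcn2, a hemicentin of basement membranes, stood at 35.6, 104 and 53.5 in mutant non-RGC libraries, 47.2, 37.3 and 50.6 in mutant RGC libraries and 53.1, 193 and 23.0 in WT RGC libraries. Its membership rested on mutant non-RGC library 2 and WT RGC library 2, and all 3 groups overlapped. Amh, the anti-Müllerian hormone of the gonads, was at low counts of 34.5 to 105. It lies outside the naming rule, and is given because its best known role is in other cells. Cfp, which encodes the complement factor properdin made by leukocytes, is described because microglia markers differed between libraries. Cfp had 255, 218 and 168 normalised counts in mutant non-RGC libraries, 219, 76.5 and 125 in mutant RGC libraries and 234, 208 and 206 in WT RGC libraries. Mutant RGC library 1, which had the highest summed count of microglia markers, was well above mutant RGC libraries 2 and 3, and both comparisons overlapped through it. The non-RGC libraries, in which those markers summed to at most 403, overlapped the WT RGC libraries in Cfp. The part of microglia in the Cfp counts was not tested.

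Channels and transporters gave 5 genes, grouped with Cpt1c, the neuronal member of the carnitine palmitoyltransferase 1 family. Slc9a5, a sodium/proton exchanger found in brain, had the second largest genotype difference after Rgs11. Counts of Slc9a5 were 960.0, 947 and 533 in mutant non-RGC libraries, 336, 549 and 727 in mutant RGC libraries and 1645, 1379.8 and 1428 in WT RGC libraries. WT RGC libraries were highest with no overlap, whereas the fractions overlapped because mutant non-RGC library 3 fell within the mutant RGC values. Slc9a5 lies at chromosome 8, 105348156 to 105369881, and its log2 difference of mutant RGCs minus WT RGCs was -1.50 (SE 0.28). Clcn2, an inwardly rectifying chloride channel, was level between the outer groups. Clcn2 stood at 1101, 1144 and 691 in mutant non-RGC libraries, 412, 473 and 623 in mutant RGC libraries and 1052, 762 and 1024 in WT RGC libraries. Mutant RGC libraries lay below the other 6, with -0.88 (SE 0.20) between genotypes and 0.94 (SE 0.23) between fractions. Ryr3, a calcium release channel of the endoplasmic reticulum, stood at 183, 155 and 104 in mutant non-RGC libraries, 159, 75.6 and 75.9 in mutant RGC libraries and 185, 188 and 174 in WT RGC libraries. Mutant RGC library 1 was about as high as the non-RGC libraries, and only mutant RGC libraries 2 and 3 were low. Cpt1c lay just inside the genotype threshold, at a ratio of -0.52, with its mutant RGC libraries at 547, 616 and 644 and its WT RGC libraries at 935, 796 and 924. Grin2c, an NMDA receptor subunit best known from cerebellar granule cells, had few counts, 98.1, 79.4 and 39.1 in mutant non-RGC libraries, 23.1, 52.3 and 68.1 in mutant RGC libraries and 90.4, 85.2 and 69.0 in WT RGC libraries. Mutant RGC library 1 was the lowest of the 9, the fractions overlapped, and mutant RGC library 3 stood at nearly the level of WT RGC library 3.

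**Figure D3:**
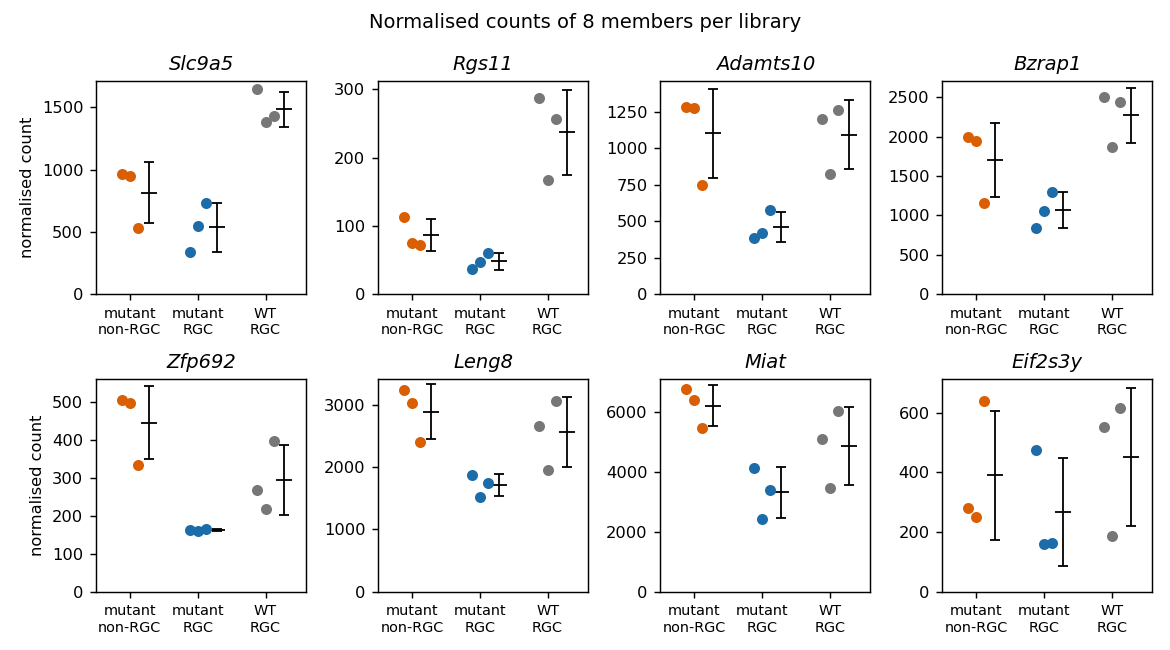
Normalised counts of 8 members are plotted by library on axes that start at 0, with mutant non-RGC, mutant RGC and WT RGC libraries from left to right, and the cross bars and whiskers give the mean and SD of 3 libraries. All WT RGC libraries are above the other 6 for Slc9a5 and Rgs11, non-RGC library 3 is the lowest of its group in each of these genes but Eif2s3y, the mutant RGC libraries of Zfp692 lie together at 159.6 to 164, and all 3 groups overlap for the Y-linked Eif2s3y.

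Vesicle traffic and the cytoskeleton were the role of 8 members. Bzrap1 (Tspoap1 in RefSeq), which encodes a RIM-binding protein of the presynaptic active zone, had a large WT RGC excess. Bzrap1 had 1993, 1949.5 and 1155 normalised counts in mutant non-RGC libraries, 838, 1059 and 1299.5 in mutant RGC libraries and 2500.2, 1871 and 2439 in WT RGC libraries. WT RGC libraries lay above all mutant RGC libraries, and non-RGC library 3 fell within the mutant RGC values. Dennd6b, an activator of Rab GTPases, followed the same layout library by library. Counts of Dennd6b were 1139, 1032 and 581 in mutant non-RGC libraries, 368, 505 and 698 in mutant RGC libraries and 1379, 911 and 1339 in WT RGC libraries. Its fractions overlapped through non-RGC library 3 alone. Cep250, the centrosome linker protein also called C-Nap1, had less spread. Cep250 stood at 1083, 1041 and 807 in mutant non-RGC libraries, 538, 542 and 660.0 in mutant RGC libraries and 1049.6, 914 and 1242 in WT RGC libraries. All mutant RGC libraries lay below the other 6, and the log2 differences were -0.84 (SE 0.14) between genotypes and 0.74 (SE 0.14) between fractions. Klhl17, an actin-binding adaptor for a ubiquitin ligase, stood at 1019, 1054 and 809 in mutant non-RGC libraries, 638, 602 and 705 in mutant RGC libraries and 1021, 927 and 905 in WT RGC libraries, and its groups were apart in both comparisons. Hook2, a cargo adaptor of dynein, and Tbce, a chaperone in tubulin folding, had all mutant RGC libraries below the other 6, with -0.72 (SE 0.14) and -0.72 (SE 0.11) between genotypes and 0.73 (SE 0.17) and 0.60 (SE 0.15) between fractions. The median log2 difference of mutant non-RGC cells minus WT RGCs over the 8 genes was -0.24, and 7 of them were below 0.

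For the 12 nuclear, RNA and chromatin genes the median log2 difference of mutant non-RGC cells minus WT RGCs was 0.22, with 4 of 12 below 0, against -0.19 for the signalling proteins, with 8 of 11 below 0. These role groups were drawn up after the values had been seen, and the difference between them was not tested. Miat, a nuclear long non-coding RNA with high expression in retina and brain, was high in the non-RGC fraction. Miat had 6756, 6402 and 5451 normalised counts in mutant non-RGC libraries, 4137, 2425 and 3381 in mutant RGC libraries and 5103, 3452 and 6022 in WT RGC libraries. Mutant RGC library 1 was higher than WT RGC library 2, so the genotypes overlapped, and every non-RGC library lay above every mutant RGC library. Leng8, a protein with a domain shared with mRNA export factors, had its mutant RGC libraries below the other 6. Counts of Leng8 were 3239.7, 3021 and 2397 in mutant non-RGC libraries, 1874, 1512 and 1743 in mutant RGC libraries and 2658, 1953 and 3063 in WT RGC libraries. WT RGC library 2 stood lowest among the WT libraries and non-RGC library 3 lowest among its own. Zfp692, a zinc finger protein, had the largest difference between fractions among named members with groups apart, 1.43 (SE 0.17). Zfp692 stood at 507, 498 and 335 in mutant non-RGC libraries, 162, 159.6 and 164 in mutant RGC libraries and 267, 219 and 399 in WT RGC libraries. Its 3 mutant RGC libraries were almost equal and lay below the rest. Clasrp, a serine and arginine rich protein that binds the splicing kinase CLK4, stood at 1214, 1253 and 969 in mutant non-RGC libraries, 505, 575 and 693 in mutant RGC libraries and 919, 772 and 1065 in WT RGC libraries. Ddx26b (Ints6l in RefSeq), a relative of an Integrator subunit, stood at 1317, 1062 and 757 in mutant non-RGC libraries, 481, 401 and 492 in mutant RGC libraries and 683, 479 and 850.3 in WT RGC libraries. For Ddx26b the fractions were apart and the genotypes overlapped through WT RGC library 2. Ccdc84, a spliceosome-associated protein, and Ddb2, which recognises ultraviolet damage in DNA, had mutant RGC libraries below the other 6, with 0.99 (SE 0.18) and 1.02 (SE 0.27) between fractions. Tcea2, a transcription elongation factor of the TFIIS family, stood at 317, 315 and 219 in mutant non-RGC libraries, 132, 178 and 209 in mutant RGC libraries and 358, 284 and 341 in WT RGC libraries, with mutant RGC libraries lowest. Hdac10, a deacetylase of polyamines, had the same layout, with -0.61 (SE 0.21) between genotypes and 0.76 (SE 0.20) between fractions. Tspyl2, an X-linked nucleosome assembly protein, overlapped between fractions because non-RGC library 3, at 513, lay below mutant RGC library 3, at 553.

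Eif2s3y was the only member on the Y chromosome, and it varied by library rather than by group. It encodes a subunit of translation initiation factor 2 and lies outside the naming rule. Eif2s3y had 279.9, 252 and 639 normalised counts in mutant non-RGC libraries, 476, 160.5 and 164 in mutant RGC libraries and 553, 186 and 617 in WT RGC libraries. High values fell in non-RGC library 3, mutant RGC library 1 and WT RGC libraries 1 and 3. The same libraries were highest for the Y-linked genes Ddx3y, Uty and Kdm5d, and the first 2 are those with Xist near 0. All 3 groups overlapped, and the log2 difference of mutant RGCs minus WT RGCs was -0.74 (SE 0.58). Firre, listed as 6720401G13Rik, is an X-linked long non-coding RNA and was also chosen after its values were seen. Counts of Firre were 264, 278 and 143 in mutant non-RGC libraries, 74.9, 44.8 and 70.1 in mutant RGC libraries and 156, 62.1 and 164 in WT RGC libraries. Its non-RGC libraries lay above all mutant RGC libraries, by the largest difference between fractions of all 78 genes, 1.81 (SE 0.31), and the genotypes overlapped.

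The long non-coding RNAs Crnde, Snhg16 and Rmst were likewise chosen for description after their values were seen. Crnde, listed as 4933436C20Rik, is a transcript next to Irx5. Crnde stood at 325, 336 and 312 in mutant non-RGC libraries, 196, 179 and 196 in mutant RGC libraries and 346, 305 and 381 in WT RGC libraries. Mutant RGC libraries were lowest, and the log2 differences were -0.81 (SE 0.12) between genotypes and 0.77 (SE 0.10) between fractions. Snhg16, listed as 1810032O08Rik, is a small nucleolar RNA host gene. Snhg16 had 234, 242 and 239 normalised counts in mutant non-RGC libraries, 120.3, 124 and 146 in mutant RGC libraries and 234, 205 and 209 in WT RGC libraries. Its non-RGC libraries were nearly equal, so its layout did not share the low non-RGC library 3. Rmst, a long non-coding RNA that works with Sox2 in neurogenesis, stood at 109, 65.9 and 44.2 in mutant non-RGC libraries, 43.5, 43.9 and 65.2 in mutant RGC libraries and 106, 92.6 and 73.4 in WT RGC libraries. For Rmst the fractions overlapped, and its non-RGC mean depended on non-RGC library 1.

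The 5 germ cell genes and 9 enzymes of metabolism had mostly low counts. Izumo4, a relative of the sperm protein that binds the egg, stood at 80.8, 82.3 and 86.4 in mutant non-RGC libraries, 40.7, 26.1 and 40.9 in mutant RGC libraries and 89.4, 58.9 and 103 in WT RGC libraries, and it was among only 4 members with a difference of at least 1 in both ratios. The others were Adamts10, 2310042D19Rik and 4933439C10Rik. Dnase1l2, a DNase of skin keratinocytes, stood at 83.7, 86.2 and 48.3 in mutant non-RGC libraries, 41.6, 36.4 and 32.1 in mutant RGC libraries and 128, 77.9 and 84.4 in WT RGC libraries, with the mutant RGC libraries lowest. Man2c1, a mannosidase that trims free oligosaccharides in the cytosol, was counted at 1045, 978 and 632 in mutant non-RGC libraries, 533, 644 and 647 in mutant RGC libraries and 996, 774 and 1011 in WT RGC libraries. Its fractions overlapped through non-RGC library 3. Sirt4, a mitochondrial sirtuin, had mutant RGC libraries of nearly equal level below the other 6. Counts of Sirt4 were 258, 248 and 285 in mutant non-RGC libraries, 142, 131 and 143 in mutant RGC libraries and 254, 178 and 205 in WT RGC libraries. Non-RGC library 3 was the highest of the 9 here. Ybx2, an RNA-binding protein of germ cells, and Spag1, a dynein arm assembly factor named for sperm, met the rule whichever library was left out, with -0.98 (SE 0.20) and -0.73 (SE 0.21) between genotypes. Among members without a group above, Fam129c (Niban3 in RefSeq) had a genotype difference of -1.20 (SE 0.24), Ankrd16, which contains ankyrin repeats, had a fraction difference of 1.13 (SE 0.22), and Ubxn11, a UBX domain protein, had one of 1.20 (SE 0.34) with overlapping genotypes.

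The thresholds cut through a continuous spread. Just inside the genotype threshold were Ddx26b and Cpt1c, both at a log2 ratio of -0.52, and just outside were Myo9b at -0.50 (-0.4964) and Ankrd23 at -0.48. Just inside the fraction threshold were Hmcn2 at 0.50 (0.5025) and Ryr3 at 0.51, and just outside were Lrrc16b at 0.50 (0.4956) and Ccdc142 at 0.49. Membership depended on single libraries too, and 33 of the 78 genes met the rule in all 9 recalculations that each left 1 library out. These 33 include Rgs11, Dnase1l2, Fam129c, Adamts10, Egf, Izumo4, Dennd6b, Bzrap1, Clcn2, Cep250, Zfp692, Ankrd16, Ccdc84 and Plekhn1. Slc9a5 met it in 6 of the 9, Leng8 in 7, Miat in 6 and Klhl17 in 5.

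The difference of mutant non-RGC cells minus WT RGCs was not a contrast of the rule, although the means of both groups entered it and the contrast is the sum of the other 2. A member near both thresholds is thereby placed near 0. The median over the 78 genes was -0.04 on the log2 scale (all 15272 tested genes 0.01), the quartiles were -0.25 and 0.14 (all tested genes -0.55 and 0.39), and 85.9% of members lay within 0.5 of 0, against 53.2% of tested genes. limma called 3 members lower in mutant non-RGC cells, where 28.5% of tested genes were called lower, and 0 higher, where 24.4% were called higher. At an unadjusted p under 0.05 the count of higher members was 3, and limma with voom weights called 0. Groups stood apart in 6 members with WT RGCs on top (32.5% of tested genes), namely Rgs11, Slc9a5, Map4k2, Dok3, Fam129c and Epha10, and in 0 with non-RGC cells on top (31.1%).

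**Figure D4:**
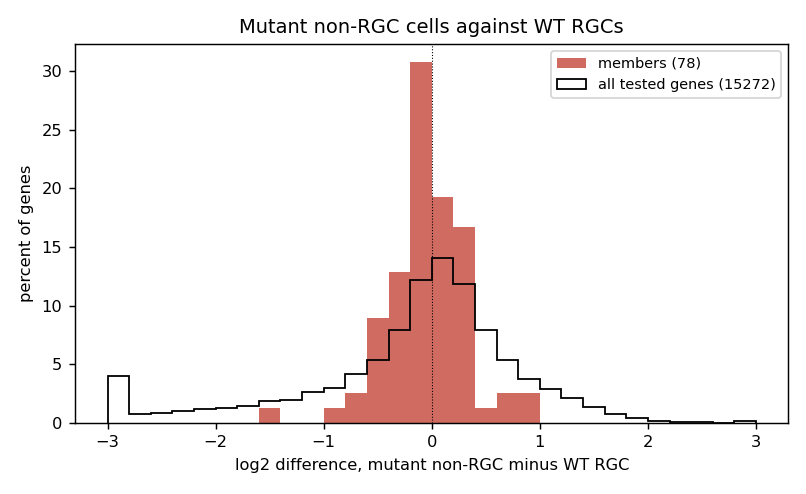
The distribution of the log2 difference of mutant non-RGC cells minus WT RGCs is drawn for the 78 members and for all tested genes, as a share of each set, with values beyond 3 in either direction counted in the last bin. Members gather around 0, with 67 of 78 within 0.5, and Rgs11 at -1.44 and Slc9a5 at -0.91 are the farthest below.

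Rgs11 fell by 1.44 on the log2 scale in mutant non-RGC cells relative to WT RGCs (SE 0.27, limma adjusted p = 0.0033), Slc9a5 fell by 0.91 (SE 0.22, limma adjusted p = 0.0101) and Map4k2 fell by 0.62 (SE 0.17, limma adjusted p = 0.0158), each lower in 3 of 3 libraries. Rgs11 and Slc9a5 were called in every fit that left 1 library out, and Map4k2 was lost without WT RGC library 1 (limma adjusted p = 0.0586). The means of both groups entered the rule, so these p-values describe the members and are not an independent test. For these genes the non-RGC level lay between the mutant RGC and WT RGC means. The rule places there any member that is lower in non-RGC cells than in WT RGCs. On the other side, Ager had the highest difference, 0.90 (SE 0.49), with Firre close to it at 0.90 (SE 0.42), Ddx26b at 0.64 (SE 0.25) and Zfp692 at 0.62 (SE 0.25), and none of them passed. The count of higher members moved with single libraries. Without mutant non-RGC library 3 it was 8 (Zfp692, Ddx26b, Ddb2, 1600020E01Rik, Ankrd16, Plekhn1, 1700094D03Rik and Clasrp), without WT RGC library 3 it was 6 (Ager, Zfp692, Ddx26b, Ubxn11, Miat and Clasrp), and it was 0 without each of the other 4 libraries. Here too, the shares of all tested genes called in these fits were not taken.

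Within groups the median member varied more than the median tested gene, with no test made of that difference. Members and tested genes were not matched for level, and the rule used means of 3 libraries, which favours genes that vary. The coefficients below thus do not set members apart from other genes of like level. They are given for the median gene. The median coefficient of variation of the members was 24.1% in mutant non-RGC libraries, 15.2% in mutant RGC libraries and 18.2% in WT RGC libraries. Over tested genes it was 10.1%, 9.47% and 11.7%. Non-RGC library 3 was the lowest of its group in 69 members (88.5%, against 39.3% of tested genes), and WT RGC library 2 was the lowest of its group in 60 (76.9%, against 28.1%). The median member stood 0.42, 0.35 and -0.10 from its mean over the 9 libraries, on the log2 scale, in non-RGC libraries 1, 2 and 3. In mutant RGC libraries 1, 2 and 3 those values were -0.58, -0.61 and -0.41, and in WT RGC libraries 1, 2 and 3 they were 0.43, 0.08 and 0.35. Each mutant RGC library therefore stood below every library of the other groups in this median. Genes that were low in mutant RGCs and lower still in non-RGC cells had another layout, since WT RGC library 3 was lowest in 98.3% of them and WT RGC library 2 in 1.25%. The samples behind these library numbers are not known, and the difference between the sets was not tested.

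**Figure D5:**
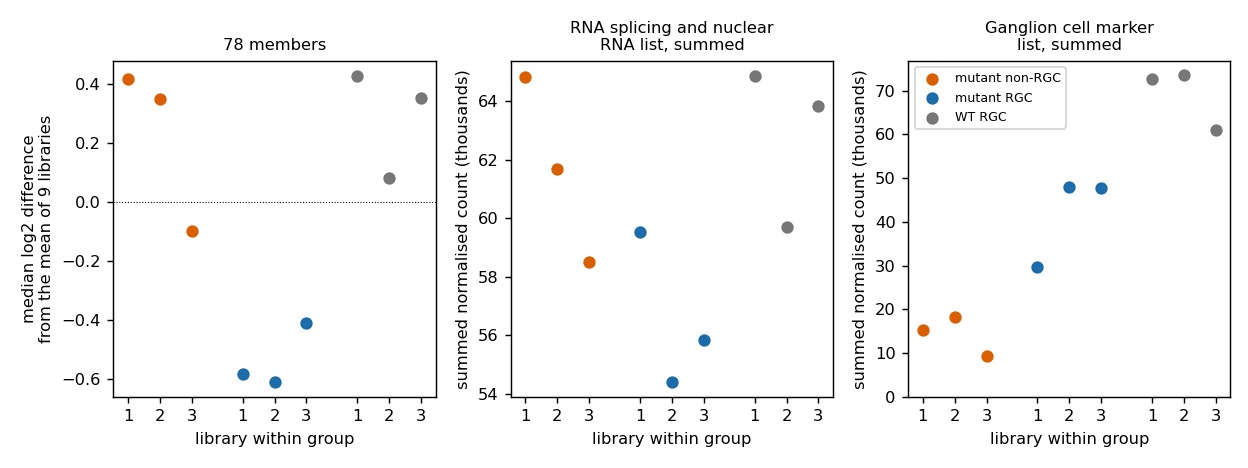
Medians of the members by library, as log2 level relative to the mean of each gene over the 9 libraries, are drawn beside the summed normalised counts of the RNA splicing and nuclear RNA list, on an axis that does not start at 0, and of the RGC marker list. Mutant RGC libraries hold the lowest member medians, -0.61 to -0.41, and non-RGC library 3, at -0.10, and WT RGC library 2, at 0.08, are the lowest of their groups.

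Of the 24 lists, that of 25 RNA splicing and nuclear RNA genes was set beside the members after its values had been seen. Summed levels of other lists differed more between libraries, such as the RGC markers at 9418 to 73610. The RNA list was thus not singled out by its spread. Its summed normalised count was 64840, 61700 and 58510 in mutant non-RGC libraries 1, 2 and 3, 59520, 54420 and 55830 in mutant RGC libraries, and 64860, 59690 and 63830 in WT RGC libraries. Non-RGC library 3 and WT RGC library 2 were the lowest of their groups, as for the members, but mutant RGC library 1 lay above non-RGC library 3. limma called 3 of the 25 lower in mutant RGCs than in WT RGCs, the long non-coding RNAs Meg3, Snhg11 and Snhg12, and 1 higher, the splicing factor Srsf1. It called 5 higher in mutant non-RGC cells than in mutant RGCs (Snhg1, Srsf5, Srsf11, Hnrnpa2b1 and Luc7l3) and 0 lower. Of all tested genes, 12.3% were called lower between genotypes and 5.08% higher between fractions. Nothing is read from the counts of this list. The median log2 difference over the list was -0.02 between genotypes and 0.20 between fractions. Whether RNA quality, nuclear RNA content or the Xist-near-0 libraries had a part in the members' values was not tested. Without those 2 libraries, a recalculation chosen after seeing the data, the rule took 128 genes, of which 67 were among the 78 members. In that recalculation limma called 32 members lower in mutant RGCs than in WT RGCs and 75 higher in mutant non-RGC cells than in mutant RGCs. The shares of all tested genes called in it were not taken.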

How the data were processed

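Poly(A) RNA of sorted newborn retina was measured in single reads of 75 cycles. Per the submitters' processing notes, STAR 2.3, featureCounts, DESeq and FastQC were used on genome build mm10, and no strand setting is given there. Per the file headers, the 2 deposited tables give the mean normalised count (signal, counts divided by size factors) over all libraries and over each condition, a fold change as a ratio with its log2 value, and a p-value from the authors' test, raw and adjusted. They give no values per library, and 0 columns of per-sample values were left unused. 12 ChIP and input samples were not analysed here.

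A search for whole read counts that add up to a deposited mean, once divided by the size factors, gave counts for single libraries, accepted within 1e-09 of a whole number with the next best solution more than 10 times further off. It succeeded for 99.979% to 100.0% of the genes above 0 in a condition. Mutant RGC counts came out the same from either table in all 23953 genes compared. Libraries carry no sample numbers. For each comparison, log2(normalised count + 1) of its 6 libraries was fitted in limma 3.58.1 (trended variance, R 4.3.3), on genes with a mean of at least 10, with the authors' size factors within a table and median-of-ratios factors over the 9 libraries for mutant non-RGC cells against WT RGCs and for all printed counts. A call is a limma p under 0.05 after Benjamini-Hochberg adjustment over all tested genes. Printed SEs are log2 differences divided by limma's moderated t, so they draw on the variance of other genes too. Log2 differences on this scale understate changes of low genes. On simulated counts of 15277 genes for the comparison of genotypes, limma found 48 of 67 genes set to a 1.5-fold change, 61 of 67 set to a 2-fold change and 64 of 66 set to a 4-fold change, and made 8 false calls. Every simulated gene had the same spread beyond counting noise, a dispersion of 0.01. The median member varied more within groups than the median tested gene, so these detection shares may be too high for members. Python 3.11.15 with numpy 2.4.6, pandas 2.3.3 and matplotlib 3.10.9 did the rest.

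The members and lists were chosen with earlier results of these data known. The naming rule takes the 12 members with the highest means, the 10 lowest between genotypes and the 10 highest between fractions among those without overlap, the 8 lowest and highest between non-RGC cells and WT RGCs without overlap, and the threshold neighbours, passing over predicted and clone names. It names 31 members, and the other members in the text were picked with their values in view. Values of 1 member are not reported here, though it is counted among the 78. RefSeq symbols, spans and promoters are of GRCm38.p6, and all 78 members matched. Alternatives were other minimum means, thresholds, pseudocounts and scalings, no filter, voom weights, 1 fit to all 9 libraries, and leaving out each library.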

Additional observations from a re-analysis of the deposited data

How the results depend on the processing

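The number of genes that met the rule was 50 at a minimum mean of 100, 126 at a threshold of 0.4, 32 at 0.7 and 4 at 1, and ran between 56 and 103 when 1 library was left out. Met in all of those 9 recalculations, it was 33. Without the 2 libraries with Xist near 0, an alternative chosen after seeing the data, it was 128, of which 67 were members. Members called lower in mutant RGCs than in WT RGCs ran between 0 and 45 with 1 library left out, with a smallest limma adjusted p of 0.0728, 0.067, 0.1069 and 0.0911 in the 4 fits with 0 calls (without mutant RGC library 2, mutant RGC library 3, WT RGC library 1 and WT RGC library 2). Members called higher in mutant non-RGC cells than in mutant RGCs ran between 5 and 57 with 1 library left out, and were 75 without the 2 libraries with Xist near 0. Members called higher in mutant non-RGC cells than in WT RGCs were 2 with all 9 libraries in 1 fit (Ddx26b and Zfp692), 5 with total-count scaling, 8 without the 2 libraries with Xist near 0, and between 0 and 8 with 1 library left out. Those called lower were 2 to 4 with 1 library left out. The median of the members in that contrast ran between -0.15 and 0.12 with 1 library left out and was 0.11 with total-count scaling, which put the median of all tested genes at 0.15, so its sign was not stable. Of 1240 values of named members under alternatives, 2 moved by more than the spread between libraries and 0 reversed a called direction. Signs changed in 29 of 434 values for mutant non-RGC cells minus WT RGCs, 1 of 403 between genotypes and 1 of 403 between fractions. The causes of these shifts were not tested, and the shares of all tested genes called under these alternatives were not taken. No paired analysis was possible because the tables carry no sample numbers. Genes with few counts, such as Egf and Dok3, have the least depth behind them.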
